A study of Caenorhabditis elegans with 2 samples.

Results

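The respiratory chain and ATP synthase genes of Caenorhabditis elegans were examined in a map of DPL-1 binding in L1 larvae, the first larval stage. The genes were taken by symbol: protein-coding genes of the nuclear chromosomes whose names start with nuo-, ndub-, nduf-, sdha-, sdhb-, sdhd-, ucr-, cyc-, cox- or atp-, together with mev-1, isp-1, gas-1 and lpd-5. The rule found 56 members among the 19973 nuclear protein-coding genes of the WBcel235 annotation, with 22 in complex I, 5 in complex II, 7 in complex III, 2 cytochrome c genes, 7 complex IV subunits, 8 complex IV assembly factors and 5 genes of ATP synthase. The rule uses names only, so it leaves out chain genes named otherwise, among them the ndua- genes of complex I and the asb- and asg- genes of ATP synthase.

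Tagged DPL-1 was precipitated from whole larvae of mixed sex of strain OP105, and the DNA was sequenced (ChIP-seq). The strain is an unc-119(ed3) mutant that carries the transgene wgIs105, which holds dpl-1 fused to TY1, EGFP and FLAG tags and a rescuing copy of unc-119. Its genotype as labelled names no mutation of the native dpl-1 gene, and the labels do not give the promoter that drives the fusion. The series has 1 group with 2 biological replicates, no second condition, and a possible control experiment that was not analysed here. Whole animals were used, so binding in few cells and weak binding in many cells cannot be told apart, and no RNA was measured.

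DPL-1 is the worm DP protein, the partner with which E2F transcription factors bind DNA, and it belongs to DREAM, a complex best known for holding cell-cycle genes silent. The respiratory chain passes electrons from NADH (complex I) and succinate (complex II) through ubiquinone, complex III and cytochrome c to oxygen at complex IV, and complexes I, III and IV pump protons out of the mitochondrial matrix. ATP synthase lets the protons back and makes ATP. Most subunits are encoded in the nucleus, while a few core subunits are encoded by mitochondrial DNA, so both genomes have to supply 1 enzyme. The L1 stage is when hatched larvae begin to feed and resume cell division.

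The DNA under the peak centre is shown for 5 bound members to let the bases be read beside the binding values. These were the member with the strongest peak of complex I (nduf-11), complex II (mev-1) and complex IV (cox-5A). For complex III and ATP synthase, cyc-1 and atp-1 had stronger peaks than the ucr-1 and atp-2 shown here. Each window runs 201 bases with the summit, the deposited point of highest signal, at base 101. It is written 5′ to 3′ on the strand of the gene, on build ce11 (WBcel235), and holds no base of an annotated exon. Capitals mark matches, on either strand, to the 4 E2F words TTCCCGC and TTCGCGC and also TTGGCGC and TTGCCGC, or to the words TTTGAA and TTCGAA of the CHR element, which the DREAM subunit LIN-54 binds.

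nduf-11, chrII:11345704-11345904, minus strand: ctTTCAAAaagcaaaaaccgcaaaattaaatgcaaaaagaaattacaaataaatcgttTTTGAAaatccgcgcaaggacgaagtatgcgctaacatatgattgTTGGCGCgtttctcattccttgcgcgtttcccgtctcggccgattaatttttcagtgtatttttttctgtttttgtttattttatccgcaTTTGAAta
mev-1, chrIII:10334040-10334240, plus strand: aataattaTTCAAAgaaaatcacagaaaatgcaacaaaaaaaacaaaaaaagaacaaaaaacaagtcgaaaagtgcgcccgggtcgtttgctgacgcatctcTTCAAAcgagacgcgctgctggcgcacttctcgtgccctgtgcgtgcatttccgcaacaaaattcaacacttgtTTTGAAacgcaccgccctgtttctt
ucr-1, chrIII:5591859-5592059, plus strand: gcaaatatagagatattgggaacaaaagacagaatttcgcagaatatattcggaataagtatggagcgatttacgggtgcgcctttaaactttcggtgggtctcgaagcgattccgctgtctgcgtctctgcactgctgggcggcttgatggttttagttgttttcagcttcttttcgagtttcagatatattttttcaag
cox-5A, chrIII:12905099-12905299, plus strand: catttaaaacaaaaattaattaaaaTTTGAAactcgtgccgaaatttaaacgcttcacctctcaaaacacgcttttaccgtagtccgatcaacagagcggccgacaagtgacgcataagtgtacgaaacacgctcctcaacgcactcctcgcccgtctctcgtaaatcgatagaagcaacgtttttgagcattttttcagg
atp-2, chrIII:5228059-5228259, plus strand: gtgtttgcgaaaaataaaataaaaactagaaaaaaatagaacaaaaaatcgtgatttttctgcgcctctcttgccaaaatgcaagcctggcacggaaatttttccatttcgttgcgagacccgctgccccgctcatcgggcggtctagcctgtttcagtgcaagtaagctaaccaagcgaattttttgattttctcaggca

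The nduf-11 window holds 1 E2F word (TTGGCGC) and 3 CHR words. The mev-1 window holds 3 CHR words and no E2F word, and that of cox-5A, the strongest peak of all members, holds 1 CHR word and no E2F word. Neither kind of word is in the ucr-1 and atp-2 windows. The share of G and C was 34.8% for nduf-11, 42.8% for mev-1 and 42.3% for each of the other three.

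A gene counted as bound where some transcript of it had the summit of a peak of the authors' IDR list in its promoter window, which reaches 1000 bp upstream and 200 bp downstream of the annotated 5' end. The IDR list was derived by the authors to favour peaks with reproducible ranks between replicates. A listed peak can still rank lower in a replicate, since the list held the 2797 strongest peaks of both replicates pooled. Their signals, on the scale of the authors' caller, ran between 30.3 and 2461. By this rule 29 of the 56 members were bound (51.8%, 95% Clopper-Pearson interval 38.0 to 65.3), against 2866 of the 19973 protein-coding genes (14.3%). With the relaxed list of each replicate, limited to its strongest 2797 peaks, 29 members were bound in replicate 1 (51.8%) and 30 in replicate 2 (53.6%), a mean of 52.7% ± 1.26 (SD, n = 2). The same lists gave 14.4% of all genes in replicate 1 and 13.8% in replicate 2, a mean of 14.1% ± 0.397 (SD, n = 2). These SDs cover how alike the same genes were called from the 2 lists, and not the spread that comes from counting 56 genes. The share of members bound was above that of all genes in the IDR list and in both replicates. No test was made of that difference, since the members were chosen with binding results known.

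Binding was found in every group of members other than the cytochrome c genes, and the groups differed in how much of each was bound. All 5 atp- genes of ATP synthase were bound, as were 6 of the 7 complex IV subunits (85.7%), 5 of the 7 complex III genes (71.4%) and 3 of the 5 complex II genes (60%). Complex I stood lower, with 8 of 22 bound (36.4%), and so did the complex IV assembly factors, with 2 of 8 (25.0%). Of the 8 assembly factors, 5 lie close downstream of another gene and none of these was bound, and without such genes 2 of 3 were bound (66.7%). Peaks that lie in the window of 1 gene only, a count added after seeing the data, gave 13.6% for complex I, 20% for complex II, 28.6% for complex III, 57.1% for the complex IV subunits, 0% for the assembly factors and 20% for ATP synthase, against 6.12% of all protein-coding genes. Neither of the 2 cytochrome c genes was bound, which at this number of genes allows a share of up to 84.2%. The intervals are wide, from 17.2 to 59.3% for complex I, 42.1 to 99.6% for the complex IV subunits, 3.19 to 65.1% for the assembly factors and 47.8 to 100% for ATP synthase, and each overlapped that of complex I. In the replicates' own lists the shares averaged 38.6% ± 3.21 for complex I, 60% ± 0 for complex II, 64.3% ± 10.1 for complex III, 85.7% ± 0 for the complex IV subunits, 31.2% ± 8.84 for the assembly factors and 90.0% ± 14.1 for ATP synthase (SD, n = 2 each). The cytochrome c genes had 0 bound in replicate 1 and 1 bound in replicate 2. The subunits of complexes III and IV and of ATP synthase were thus bound in a larger share than those of complex I in each replicate. In the longer relaxed list of both replicates pooled, complex III (71.4%) was below complex I (81.8%), while the complex IV subunits and ATP synthase (100% each) were above it.

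**Figure D1:**
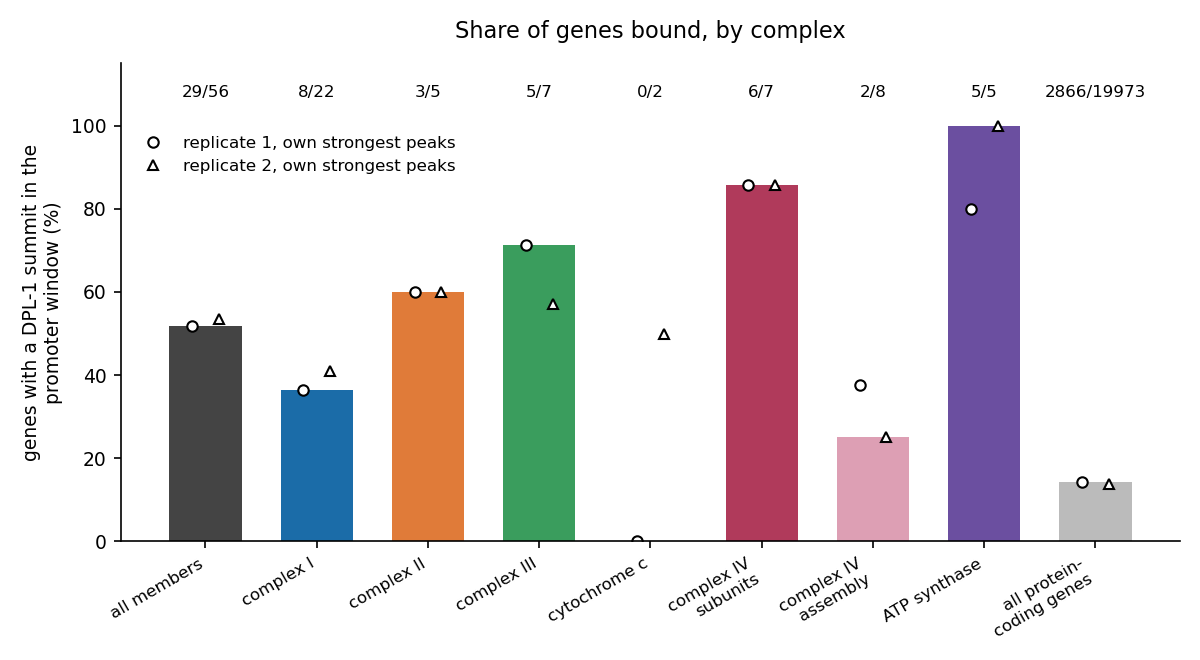
Share of genes bound (percent, bars from the IDR list) for all members, for each group of members and for all protein-coding genes, with circles and triangles for the share in the strongest peaks of replicate 1 and replicate 2 and the counts above the bars. ATP synthase (5 of 5) and the complex IV subunits (6 of 7) stand highest, complex I (8 of 22) and the assembly factors (2 of 8) lower, and all protein-coding genes are at 14.3%.

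Peak strength varied widely among the bound members, from rank 11 at cox-5A to rank 2423 at atp-4. The strongest peak in each bound member's window had a median signal of 145 and a median rank of 742 among the 2797 IDR peaks, against a median signal of 95.1 and a median rank of 1068 over all bound protein-coding genes. Of the 29 bound members, 22 (75.9%) had a peak above the list's median signal of 71.5, against 1773 of the 2866 bound genes (61.9%). The strongest part of the list, down to rank 699, held the peaks of 13 members (44.8%), against 978 bound genes (34.1%). Among the first 20 peaks was that of 1 bound member (3.45%), against 0.872% of all bound genes. The first 100 held the peaks of 2 members (6.90%), against 4.78%, and the first 500 those of 8 members (27.6%), against 24.8%. At a cutoff between these the order was reversed, with 3 members (10.3%) against 388 bound genes (13.5%). Over all genes and not only bound ones, 22 of 56 members (39.3%) had a peak above the median signal, against 8.88% of protein-coding genes.

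Complex I is the entry point for electrons from NADH. Its strongest peak was at nduf-11, the worm homologue of the accessory subunit NDUFA11, with a signal of 702 at rank 87 of the IDR list. The replicates gave nduf-11 signals of 429 (rank 95) in replicate 1 and 275 (rank 80) in replicate 2. Signals are comparable only within a list, so the ranks are what can be set side by side, and they place nduf-11 among the first 100 peaks in each replicate. ndub-8, the homologue of NDUFB8, had a signal of 191 at rank 565, with 125 (rank 546) in replicate 1 and 65.1 (rank 618) in replicate 2. nuo-1, which encodes the flavoprotein that takes up electrons from NADH, had a signal of 190.4 at rank 567, with 109 (rank 614) in replicate 1 and 81.7 (rank 499) in replicate 2. These peaks kept close to the same rank in both replicates.

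The other bound genes of complex I carried weaker peaks, led by nduf-2.2 with a signal of 176 and nuo-2 with 107. nuo-2 encodes the homologue of the core subunit NDUFS3. nduf-6 (77.9), nduf-9 (71.3) and ndub-3 (53.8) followed, at ranks 1306, 1403 and 1758. The 14 members of complex I that were not bound include the homologues of core subunits nuo-5 (NDUFS1) and nduf-7 (NDUFS7), and lpd-5, the homologue of the accessory subunit NDUFS4. The nduf-2.2 peak had a signal of 98.9 (rank 681) in replicate 1 and 80.1 (rank 510) in replicate 2. Its summit lies 806 bp upstream of nduf-2.2 and 637 bp upstream of dlc-1, a dynein light chain gene on the opposite strand, which is the nearer gene.

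Complex II oxidizes succinate and is also an enzyme of the citric acid cycle. mev-1, the cytochrome b subunit SDHC in which a mutation gives oxygen sensitivity and a short life, had the strongest peak of this complex, with a signal of 243 at rank 456. Its signals were 139 (rank 484) in replicate 1 and 102 (rank 396) in replicate 2. sdhd-1, the other membrane anchor, had a signal of 145 at rank 742, with 93.6 (rank 723) in replicate 1 and 48.5 (rank 842) in replicate 2. Both membrane subunits thus had a peak in their window in both replicates. Each summit also lies in the window of a nearer gene on the opposite strand. At mev-1 that gene is jmjd-4. The sdhd-1 summit lies 207 bp upstream of sdhd-1 and 135 bp upstream of ilkp-1. Given only to the nearest gene, peaks marked 1 of the 5 complex II genes. Among the flavoprotein paralogues, sdha-1 was bound with a signal of 107 at rank 960, with 57.75 (rank 1089) in replicate 1 and 51.0 (rank 804) in replicate 2. sdha-2 was not bound, and its window held no relaxed peak in replicate 1 and only one of rank 12337 in replicate 2. The iron-sulfur subunit gene sdhb-1 was not bound either, with relaxed peaks of rank 16261 in replicate 1 and 4680 in replicate 2.

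Complex III passes electrons from ubiquinol to cytochrome c. cyc-1, which encodes cytochrome c1, had the strongest peak of its group, with a signal of 182 at rank 591, 104 (rank 642) in replicate 1 and 77.0 (rank 527) in replicate 2. ucr-1, a core protein, had a signal of 122 at rank 880, with 73.0 (rank 881) in replicate 1 and 52.8 (rank 777) in replicate 2. The replicates placed both genes at similar ranks. isp-1, the Rieske iron-sulfur protein whose mutant worms live long, had a weak peak with a signal of 44.0 at rank 2093. Its ranks were 1741 in replicate 1 (signal 33.5) and 2961 in replicate 2 (signal 11.97), so it was among the strongest 2797 peaks of replicate 1 only. Of the 3 paralogous core protein 2 genes, ucr-2.2 had a signal of 94.9 at rank 1072, with 59.9 (rank 1051) in replicate 1 and 33.7 (rank 1209) in replicate 2. ucr-2.1 had a signal of 66.95 at rank 1478, with 43.95 (rank 1409) in replicate 1 and 21.2 (rank 1800) in replicate 2. ucr-2.3 was not bound, with a relaxed peak of rank 22595 in replicate 1 and none in replicate 2. ucr-11 had no peak of any list in its window.

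Cytochrome c carries electrons from complex III to complex IV, and it is encoded by cyc-2.1 and cyc-2.2. Neither was bound. cyc-2.1 had a relaxed peak in its window with a signal of 29.25 in the pooled list, just under the lowest signal in the IDR list, which was 30.3. The strongest peak in the cyc-2.1 window ranked 5633 in replicate 1 (signal 11.6) and 1842 in replicate 2 (signal 20.7), so only replicate 2 by itself would have given a call. The window of cyc-2.2 held no peak in the pooled list or in either replicate.

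Complex IV reduces oxygen to water, and the 6 bound subunit genes had a median signal of 234, with values between 59.5 and 1436. cox-5A had the strongest peak of all members, with a signal of 1436 at rank 11 of the IDR list and rank 10 in each replicate, where its signals were 892 in replicate 1 and 551 in replicate 2. The summit lies 292 bp upstream of the cox-5A 5' end, and no other gene's window holds it. cox-5B followed with a signal of 387 at rank 251, 33 bp upstream of its 5' end, with 209.9 (rank 329) in replicate 1 and 177 (rank 181) in replicate 2. cox-6B had a signal of 359 at rank 284, with 235.5 (rank 274) in replicate 1 and 125 (rank 312) in replicate 2. Among these 3 subunit genes the replicates put cox-5A far ahead of the others.

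Which 5' end of cox-6B a peak belongs to depends on the transcript, since the gene has annotated 5' ends at III:2699663 and III:2786202. The strong summit lies 162 bp upstream of the downstream one and within an intron of the transcript that starts farther away, in the windows of Y71H2AM.20 and nduc-2 as well. A weaker summit, with a signal of 45.4 at rank 2024, lies 712 bp upstream of the far 5' end. cox-6B was the only bound member with more than 1 IDR peak in its windows. The remaining bound subunits were cox-4 (signal 109.7, rank 948), cox-6C (63.8, rank 1523) and cox-6A (59.5, rank 1623), and cox-7C was not bound.

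The assembly factors put haem and copper into complex IV or bring its parts together. cox-10, which encodes the enzyme that farnesylates haem, had a signal of 323 at rank 332, with 225 (rank 293) in replicate 1 and 99.55 (rank 419) in replicate 2. cox-14 had a signal of 247 at rank 450, with 173 (rank 397) in replicate 1 and 76.15 (rank 535) in replicate 2. Both peaks lie between the gene and a neighbour on the opposite strand, rde-4 in the case of cox-14, which encodes a double-stranded RNA binding protein of RNA interference. The haem A synthase gene cox-15, the copper chaperone gene cox-17, and cox-11, cox-16, cox-18 and cox-19 were not bound.

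All 5 atp- genes were bound, but 4 of them by peaks that also lie in the window of a gene on the opposite strand. The genes that share them are mcrs-1 for atp-1, C34E10.10 and C34E10.12 for atp-2, F27C1.2 for atp-3 and lmtr-3 for atp-5, and with peaks in 1 gene's window only the share was 20%, that of atp-4 alone. atp-1, the alpha subunit of the catalytic head, had a signal of 308 at rank 352, with 179.9 (rank 387) in replicate 1 and 127 (rank 305) in replicate 2. atp-2, the catalytic beta subunit, had a signal of 187 at rank 579, with 127 (rank 536) in replicate 1 and 58.4 (rank 693) in replicate 2. Both subunits of the catalytic head were thus within the first 699 peaks of the list. atp-3, the stalk subunit OSCP, had a signal of 149 at rank 725, with 97.3 (rank 696) in replicate 1 and 53.0 (rank 770) in replicate 2. atp-5, homologue of subunit d, had a signal of 119 at rank 894, with 81.15 in replicate 1 and 36.7 in replicate 2. atp-4, homologue of coupling factor 6, had the weakest peak of all bound members, with a signal of 35.9 at rank 2423. It ranked 3500 in replicate 1 (signal 15.6) and 2061 in replicate 2 (signal 18.1), so it was among the strongest 2797 peaks of replicate 2 only, and ATP synthase stands at 4 of 5 by replicate 1 alone.

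**Figure D2:**
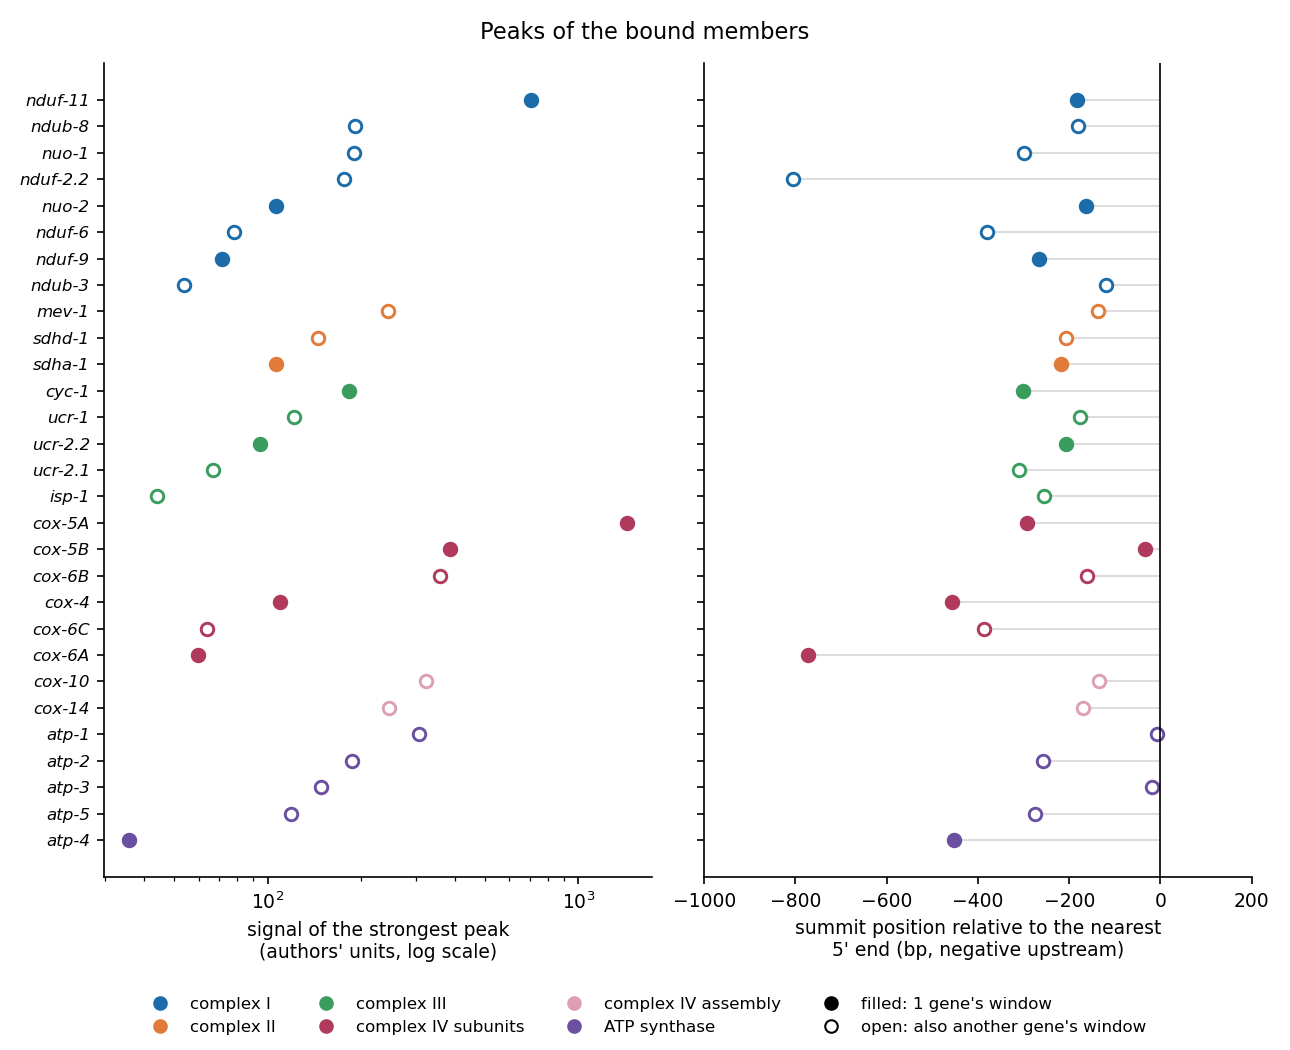
Signal of the strongest IDR peak of each of the 29 bound members (left, authors' units on a log scale) and the position of its summit relative to the nearest 5' end of the gene (right, bp, negative upstream), coloured by complex, filled where the summit lies in the window of that gene alone and open where it lies in another gene's window as well. Signals run from 35.9 at atp-4 to 1436 at cox-5A, and every summit lies upstream, from 806 bp at nduf-2.2 to 8 bp at atp-1.

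All 29 bound members had a summit within 100 bp of the IDR summit in the relaxed list of each replicate, and the replicates' summits lay a median of 3 bp and at most 74 bp from it. Since pooled data decided which peaks entered the IDR list, some of this match is by construction. Of the 29, 27 were bound in the strongest peaks of both replicates and 2, isp-1 and atp-4, in those of 1 replicate. Ranks in the replicates had a Spearman rho of 0.950 over the 29 members, given as a description, and 25 of the 29 ranks were within 1.5-fold of each other. Conversely, 3 members without an IDR peak were bound in the strongest peaks of 1 replicate: nuo-3 and cyc-2.1 in replicate 2 and cox-11 in replicate 1.

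**Figure D3:**
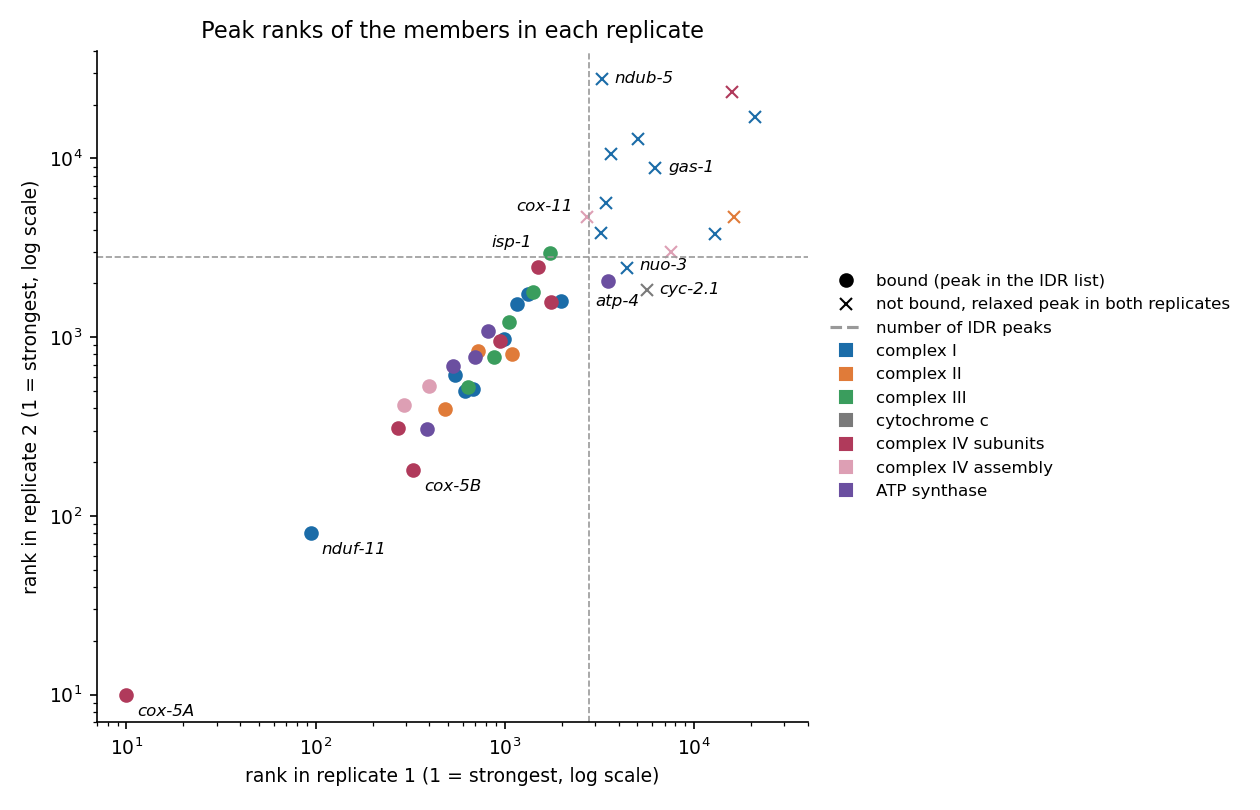
Rank of each member's peak in the relaxed list of replicate 1 (horizontal) and replicate 2 (vertical), both on log scales with 1 the strongest, for the 29 bound members (circles) and the 14 members that were not bound but had a relaxed peak in both replicates (crosses), with dashed lines at rank 2797. Bound members run along the diagonal from cox-5A at rank 10 in both, and isp-1 and atp-4 each lie past 1 of the lines. For members not bound, each rank is that of the strongest relaxed peak in the window, with summits not matched between replicates.

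Among the 27 members that were not bound, 14 had a relaxed peak in the window in both replicates, 9 in 1 replicate and 4 in neither (nuo-4, ucr-11, cyc-2.2 and cox-18). The pooled relaxed list held a peak for 18 of them, with signals of 9.81 to 29.2 and a median of 16.6. By the pooled relaxed list, which holds 23883 peaks, 83.9% of members had a peak, against 41.2% of protein-coding genes. These relaxed peaks were not in the IDR list, and whether they are binding or background was not tested.

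Of the 14 members with a relaxed peak in both replicates, 9 belong to complex I. Each rank is that of the strongest relaxed peak in the window, and summits were not matched between the replicates. nuo-3 ranked 4423 in replicate 1 and 2444 in replicate 2, lpd-5 ranked 3250 in replicate 1 and 3822 in replicate 2, and nuo-6, whose mutation extends life span, ranked 3454 in replicate 1 and 5618 in replicate 2. In the pooled list these 3 had signals of 24.8 (nuo-3), 23.8 (lpd-5) and 23.1 (nuo-6), below the IDR minimum of 30.3. nduf-7 ranked 3635 in replicate 1 and 10586 in replicate 2, nduf-5 ranked 5061 in replicate 1 and 12919 in replicate 2, and gas-1 ranked 6271 in replicate 1 and 8798 in replicate 2. The ranks of nduf-7 and nduf-5 belong to different sites in the 2 replicates. The nduf-7 summits were at -897 bp in replicate 1 and 102 bp in replicate 2 (negative upstream). Those of nduf-5 were at -175 bp in replicate 1 and -900 bp in replicate 2. ndub-5 differed most between the replicates, with rank 3254 in replicate 1 and 27707 in replicate 2. ndub-7 ranked 12924 in replicate 1 and 3763 in replicate 2, and ndub-10 ranked 21078 in replicate 1 and 16997 in replicate 2. Outside complex I, and besides sdhb-1 and cyc-2.1 above, cox-11 ranked 2721 in replicate 1 and 4697 in replicate 2, cox-16 ranked 7558 in replicate 1 and 2995 in replicate 2, and cox-7C ranked 15975 in replicate 1 and 23393 in replicate 2. Apart from nuo-3, cyc-2.1 and cox-11, none of the 14 was among the strongest 2797 peaks of either replicate.

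The window that defines binding reaches to both sides of the 5' end. All 29 summits of bound members were upstream of the nearest 5' end, at a median of 217 bp, against 219 bp for all bound protein-coding genes. Of the 29, 12 (41.4%) lay within 200 bp of the 5' end, against 1302 of all bound genes (45.4%). By the annotation 25 summits were intergenic, 1 (ndub-3) lay in a 5' UTR, that of a neighbouring gene, 2 (nuo-2 and atp-4) in the 3' UTR of the upstream gene and 1 (cox-6B) in an intron. Many worm transcripts are trans-spliced, so an annotated 5' end can lie downstream of where transcription starts.

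Many of these peaks stand between divergent genes, where a summit cannot be given to either gene from position alone. For 18 of the 29 members (62.1%) the strongest peak also lay in the window of another gene, against 1663 of all bound genes (58.0%), and in all 18 at least 1 such gene was on the opposite strand. The neighbours include rpl-36.A, a ribosomal protein gene, beside nuo-1, nars-1, an asparaginyl-tRNA synthetase gene, beside nduf-6, ddx-15, an RNA helicase gene, beside ucr-1, and nmat-1 beside ucr-2.1. At mev-1 the summit was 137 bp upstream of mev-1 and 122 bp upstream of jmjd-4. The member was the gene nearest to the summit for 19 of the 29. Given only to the nearest gene, peaks marked 33.9% of members, against 10.1% of protein-coding genes. Counting only summits that lie in the window of 1 gene, 19.6% of members were bound, against 6.12% of protein-coding genes. The 11 members whose strongest peak lay in their window alone were nduf-11, nuo-2, nduf-9, sdha-1, cyc-1, ucr-2.2, cox-5A, cox-5B, cox-4, cox-6A and atp-4.

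Many worm genes lie in operons, rows of closely spaced genes on the same strand that are transcribed together from the promoter of the first gene. The binding of members was therefore also read by position in such rows, without knowing which rows are operons. Of the 56 members, 18 start within 500 bp of the end of a gene that precedes them on their strand, and 6 of these 18 were bound (33.3%), against 23 of the 38 other members (60.5%). Over all protein-coding genes the shares were 10.2% for genes in such positions and 15.3% for the others. With a gap of at most 150 bp, 2 of 13 members were bound (15.4%), nuo-2 and atp-4, against 7.51% of all genes with such a gap. With a gap of 150 to 500 bp, 4 of 5 members were bound, against 12.3% of all genes with such a gap.

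The 12 members that were not bound and lie in such a row had gaps of 94 to 237 bp, with a median of 102 bp. For 9 of the 12 (75.0%), the first gene of the row was itself bound, against 977 of the 3246 protein-coding genes in rows that were not bound (30.1%). That difference was not tested. cox-11, which encodes a copper delivery factor, lies in a row that starts with lin-54, the gene for the DNA-binding subunit of DREAM, and lin-54 had a signal of 780.5 at rank 70, with ranks 79 in replicate 1 and 69 in replicate 2. cyc-2.1 follows rpl-20, a ribosomal protein gene, which had a signal of 608 at rank 117, with ranks 133 in replicate 1 and 100 in replicate 2. The rpl-20 summit lies 1055 bp upstream of the cyc-2.1 5' end, just outside its window. cox-18 follows Y55F3AR.2 (signal 364, rank 281), nuo-4 lies in a row that starts with syf-2, a splicing factor gene (358.5, rank 285), and ucr-11 follows dad-1 (212, rank 508). cox-15 lies in a row that starts with the proteasome gene rpn-9 (129, rank 818), nuo-5 follows Y45G12B.2 (102, rank 996) and ndub-10 follows exos-3 (61.3, rank 1579). sdha-2 follows ndua-13, itself a complex I gene (52.2, rank 1808). The first gene of the row was not bound for ndub-2, cox-17 and cox-19. Whether any of these members is transcribed from the bound promoter was not tested.

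**Figure D4:**
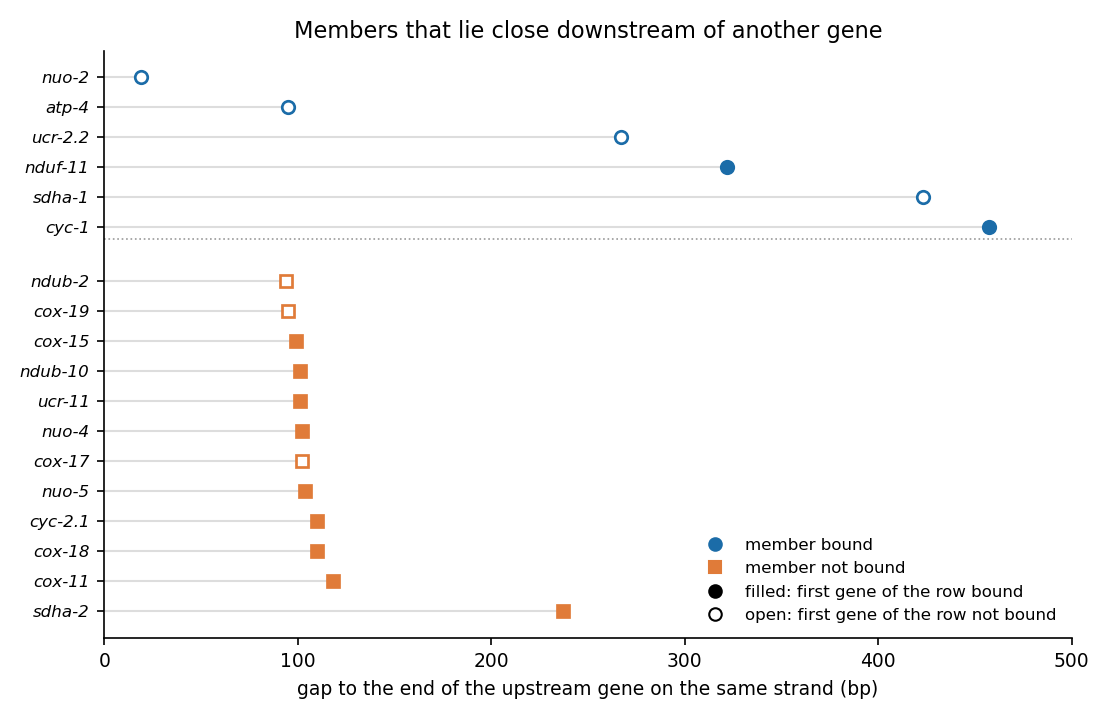
Gap (bp) between each of the 18 members in a row and the end of the gene upstream of it on the same strand, for the 6 bound members (blue circles) and the 12 that were not bound (orange squares), filled where the first gene of the row was bound. Among those not bound, 11 have gaps under 120 bp and sdha-2 has 237 bp, while 4 of the 6 bound members have gaps from 267 to 457 bp.

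For the 27 members without an IDR peak in their window, the nearest IDR summit lay 1055 to 44349 bp from the 5' end, with a median of 6449 bp. It was within 2000 bp for 5 of them, ndub-10, ndub-2, sdha-2, ucr-11 and cyc-2.1, all of which lie in rows. The other extreme was cox-17, and gas-1 had its nearest summit 16644 bp away.

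Most member peaks held no E2F word near the summit. Within 100 bp of the summit, 4 of the 29 member peaks (13.8%) held an E2F word, those of nduf-11, nuo-2, sdha-1 and cox-5B, against 504 of the 2095 IDR peaks in promoter windows (24.1%). The 201 bases just upstream of the outermost 5' end held one in 6.31% of all protein-coding genes. A CHR word was found at 10 member peaks (34.5%), against 1186 of the promoter peaks (56.6%) and 56.2% of the upstream windows of all genes. Both kinds stood at 2 member peaks, nduf-11 and cox-5B, and neither at 17. The difference between member and all promoter peaks was not tested, and with 29 peaks the E2F count rests on 4 genes. A match is a description of the letters and not a binding site, and these windows say nothing about factors at the members that lack a match.

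Other genes of the same pathways, outside the naming rule, were read from lists set by symbol. All 36 symbols of the fixed lists were matched. That count takes in the fission, fusion and quality control genes described at the end, but not the ndua- genes. Of the 7 further genes of ATP synthase and its inhibitor, 4 were bound, against 14.3% of all protein-coding genes. These were hpo-18 (signal 396, rank 241), mai-2 (356, rank 289), asb-2 (124, rank 863) and asg-2 (114, rank 917). mai-2 is the inhibitor that acts on the enzyme when the membrane potential falls, and its peak lay in its own window. The hpo-18 peak is shared with figl-1 and mcm-7, a gene of the replicative helicase, and the asg-2 peak with glr-6. asb-1, asg-1 and mai-1 were not bound, so for each of these gene pairs 1 paralogue was bound and the other was not. Of the 7 ndua- genes of complex I, 4 were bound, ndua-8 (293, rank 382), ndua-5 (286, rank 390), ndua-2 (67.9, rank 1460) and ndua-13 (52.2, rank 1808). The peaks of ndua-8, ndua-2 and ndua-13 also lie in other genes' windows. ndua-2 ranked 1142 in replicate 1 but 3791 in replicate 2, and the strongest peaks of replicate 2 gave 3 of the 7. With the ndua- genes added, 52.4% of all members were bound, and 12 of 29 genes of complex I (41.4%). This count leaves out nduc-2, a complex I gene whose window holds the strong cox-6B summit (rank 284).

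Ubiquinone is the carrier that takes electrons from complexes I and II to complex III. Of the 8 genes listed for its synthesis 1 was bound, near the 14.3% of all protein-coding genes. It was coq-5, a methyltransferase gene, with a weak peak (signal 33.0, rank 2593) that was in the strongest 2797 of neither replicate. Among the genes not bound, coq-2, coq-3, coq-4, coq-6, clk-1 and coq-8 lie close downstream of another gene, and coq-1 does not. Of 6 further assembly factors 2 were bound, against 14.3% of all protein-coding genes. These were nuaf-1 (152, rank 700), whose peak also lies in the window of bir-2, and sco-1, a copper chaperone gene (257, rank 427). Of the 5 carrier genes 1 was bound, against 14.3% of all protein-coding genes, and so few genes allow no comparison. It was ant-1.1, which encodes an ADP/ATP exchanger of the inner membrane. Its signal of 876.5 at rank 50 was above that of every member other than cox-5A, and it ranked 70 in replicate 1 and 36 in replicate 2. The peak also lies in the windows of T27E9.2 and abcf-2. These lists have few genes, and no difference between them was tested.

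Members lie on all 6 nuclear chromosomes and the share bound differed between them, as it did for all genes. On chromosome III 9 of 12 members were bound, against 24.3% of its protein-coding genes, and on chromosome I 7 of 17, against 21.7%. Chromosome II had 6 of 10, against 14.9%, chromosome IV 2 of 8, against 13.9%, and chromosome V 2 of 5, against 8.97%. On the X chromosome, where 6.63% of genes were bound, 3 of 4 members were bound: sdha-1, ucr-2.1 and ucr-2.2. No list held a peak on the mitochondrial chromosome, which encodes a few core subunits of the chain. Whether peaks on that chromosome could enter the lists was not examined.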

How the data were processed

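Tagged DPL-1 was mapped by ChIP-seq in 2 samples, which the labels call biological replicates. Relaxed peaks were listed by the authors for each replicate and for both pooled, with 1 control file, and an IDR list was derived from these, per the deposited file listing. Not given in the sources used here are the aligner, the caller, the IDR threshold, their versions and the treatment of reads that map to several places. The deposited signal of a peak is the authors' value on a scale that is not stated, so it was ranked within a list only. The relaxed lists of the replicates hold 30000 peaks each, and the IDR peaks were the 2797 strongest of the pooled list and carry its values. No read counts are given, so depth is unknown.

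Summits were the deposited start plus offset, 1-based on ce11. Genes came from Ensembl release 115 (WBcel235), with transcripts of all kinds for a gene's 5' ends. A summit in several windows counted for each gene, so genes that share a peak are not independent. A gene in a row was one that starts within 500 bp downstream of another on the same strand. The spread between replicates came from the same rule on the 2797 strongest peaks of each replicate. Clopper-Pearson intervals (95%) cover counting error only. Run on simulated data over 19973 genes, the rule recovered 200 of 200 planted genes. The planted summits were drawn from the same windows, so this checks the code and not how well the rule finds bound genes. The tools were Python 3.11.15, NumPy 2.4.6, SciPy 1.17.1 and Matplotlib 3.10.9.

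All members may be named. Values in each replicate are given for the 3 strongest bound members of each complex, paralogue groups, gas-1, nuo-1, isp-1, cyc-1, atp-1 and atp-2, and members with only relaxed peaks in both replicates. Other names, such as neighbouring genes, were chosen after their values were seen. The members and lists were chosen with earlier results of these data known. The single group has no contrast, so no difference was tested. Alternatives covered the window, the gene assignment, the peak list, each replicate left out and genes in rows.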

Additional observations from a re-analysis of the deposited data

How the results depend on the processing

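The share of members bound (51.8%) became 33.9% when each peak was given only to its nearest gene, 83.9% with all peaks of the pooled relaxed list, and 19.6% with peaks in the window of 1 gene only, a setting chosen after seeing the data. In each case the share over all protein-coding genes moved too, to 10.1%, 41.2% and 6.12%. With the nearest gene only, complex I stood at 22.7%, complex II at 20%, complex III at 42.9% and the complex IV assembly factors at 12.5%. With the pooled relaxed list, complex I was at 81.8%, cytochrome c at 50% and the assembly factors at 87.5%. Complex III (71.4%) and complex II (80%) were then below complex I, and the complex IV subunits and ATP synthase (100% each) above it. With peaks in 1 gene's window only, complex I was at 13.6%, complex II at 20%, complex III at 28.6%, the assembly factors at 0% and ATP synthase at 20%. Cytochrome c was at 50% with a window of 2000 bp upstream, and also where any base of a peak in the window counted. Complex III was at 42.9% with IDR peaks above the median signal. Without genes within 500 bp downstream of another, or within 150 bp (chosen after seeing the data), the assembly factors were at 66.7%, since fewer genes were counted. The median rank of 742 was 585 with peaks above the median signal and 1478 with the pooled relaxed list, by construction of those lists. When 1 replicate was left out, the cytochrome c share ran from 0 to 50% and the median rank from 723 to 790.5. The other causes were not tested. In all, 96 values stayed within 1.5 times the reported value or, for ranks and motifs, within the replicate SD or the interval. They include all those with RefSeq 5' ends, an alternative chosen after seeing the data. For the share of peaks with an E2F word that interval is wide, so staying within it says little. Member peaks held such a word in 10.3% within 50 bp of the summit, against 18.6% of promoter peaks. Within 150 bp the shares were 20.7% and 25.9%. No paired analysis was possible because the series has 1 group.

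Depth is unknown, 2 replicates give only a rough spread, and groups of 2 to 8 genes give wide intervals. Shared peaks cannot be assigned to 1 gene, and the lists do not say in which cells DPL-1 was bound or whether expression depends on it.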

Other observations

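Genes of mitochondrial fission, fusion and protein quality control, outside the chain, were also read. Of 10 such genes 8 were bound, against 14.3% of all protein-coding genes. The strongest peaks of replicate 1 gave 8, against 14.4%, and those of replicate 2 gave 7, against 13.8%. phb-2, a prohibitin gene of the inner membrane, had a signal of 767 at rank 74, with ranks 92 in replicate 1 and 55 in replicate 2. Its partner phb-1 had a weaker peak, with a signal of 121 at rank 884. The protease gene spg-7 (392, rank 244) and the chaperone genes hsp-60 (377, rank 267) and hsp-6 (88.6, rank 1148) followed, and these 3 peaks and that of phb-1 also lie in other genes' windows. drp-1 (43.6), fzo-1 (40.04) and lonp-1 (36.6) had peaks near the foot of the list, while eat-3 and ymel-1 were not bound. The drp-1 peak also lies in the window of fem-1 and the lonp-1 peak in that of spcs-1. No difference between this list and the chain was tested.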
